A study of Oryzias latipes with 4 samples.

Results

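Arylalkylamine N-acetyltransferase aanat1b is represented by 1 of the 93896 transcript models whose levels were deposited for the brain of female medaka (Oryzias latipes), the model MEDAKA039201, taken by its identifier. The dissected piece was the ventral telencephalon together with the hypothalamus and the pituitary, collected 16 h after fish bought from a dealer had been moved out of SD into LD, abbreviations that the labels leave unexplained. Each of 2 assays, RNA-seq and Ribo-seq, was made in 2 libraries with a TruSeq Ribo Profile Mammalian kit. Ribo-seq reads the mRNA pieces left inside ribosomes after nuclease digestion, and its signal set against the mRNA level gives translation in relative terms. All fish had the same treatment, so the comparison that the groups allow is between the assays. Strain and age are not in the labels. Nor is it stated whether replicates are different fish, so p-values here reflect the spread between libraries, which may be technical only. In such bulk samples, fewer cells of a type and less RNA per cell cannot be told apart.

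The enzyme transfers an acetyl group from acetyl coenzyme A to an arylalkylamine. Acting on serotonin, it makes N-acetylserotonin, the substrate from which the methyltransferase ASMT makes melatonin, the hormone of darkness. Bony fish carry several copies of the gene. The aanat2 copy is known for melatonin synthesis in the pineal organ, whereas enzymes of the aanat1 type are known from the retina and the brain and also acetylate dopamine.

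Of 13 pituitary and neuropeptide markers, 12 had a model and 11 were tested. cga, the alpha subunit of the glycoprotein hormones, had 342 FPKM in RNA-seq replicate 1 and 159 in replicate 2, and lhb, the beta subunit of luteinizing hormone, 44.7 and 16.9. In Ribo-seq cga had 1115 and 954 FPKM and lhb 206 and 86.8. oxt, the oxytocin-family precursor, had 66.2 and 71.0 in RNA-seq, and prl, the prolactin gene, was low at 0.367 and 0.114. Other abundant members differed less between the RNA-seq replicates, with pomc at 247 and 231, scg5 at 93.5 and 99.7 and chga at 83.1 and 79.3. pou1f1 had 8.12 and 5.54. The part of pituitary RNA in the differences between replicates was not tested. FPKM is the fragment number scaled by the length of the model and by the mapped fragments of the library. The deposited table gives no read numbers. In each library, however, FPKM multiplied by the model length less 201 nt piled up at multiples of a fixed value, which was taken as the value of 1 read. By this step RNA-seq replicate 1 held about 21800000 fragments and replicate 2 about 23300000. The Ribo-seq libraries were shallower, at about 10300000 in replicate 1 and 13400000 in replicate 2. Of the low values of models that overlap no other, 29.0% to 31.8% lay within 0.05 of a whole number of steps, against 4.74% to 8.21% when the step was taken 1.3 times as large. The offset and the step were set at the tallest pile of these same values, so this contrast was partly fixed in advance. Most of the values did not lie that near a whole step. The offset was the same in both assays, so Ribo-seq levels too were scaled by an effective length far from that of a footprint, and short models have high FPKM for few reads. Reads given below are estimates of this kind, and their intervals cover counting error only.

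aanat1b was a low transcript with more footprint signal than RNA signal for the depth of the libraries. RNA-seq gave it 0.877 FPKM in replicate 1 and 0.639 in replicate 2. Ribo-seq gave it 2.56 FPKM in replicate 1 and 1.67 in replicate 2. Both Ribo-seq values lay above both RNA-seq values, an order found in 10.5% of all models and 31.4% of the models with a RefSeq symbol. The lower Ribo-seq value was 1.90 times the higher RNA-seq value. The RNA-seq mean was 0.758 ± 0.168 FPKM (SD, n = 2). The Ribo-seq mean was 2.12 ± 0.634 FPKM (SD, n = 2), which is 2.79 times as high. Within equal replicate numbers the ratio was 2.92 for replicate 1 and 2.61 for replicate 2. These levels were known when the gene was chosen, and they are given as a description, with no test.

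Few reads stood behind these levels. The RNA-seq values were worth about 18 and 14 reads and the Ribo-seq values about 25 and 21. The exact Poisson 95% interval was 0.520 to 1.39 FPKM in RNA-seq replicate 1 and 0.348 to 1.07 in replicate 2. In Ribo-seq it was 1.66 to 3.79 FPKM in replicate 1 and 1.03 to 2.55 in replicate 2, so the intervals of the Ribo-seq replicates overlapped each other, and that of replicate 2 also overlapped both RNA-seq intervals. Taken over both libraries of each assay, 46 footprints of about 23700000 fragments stood against 32 RNA reads of about 45100000. The ratio after division by these depths was 2.74.

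**Figure D1:**
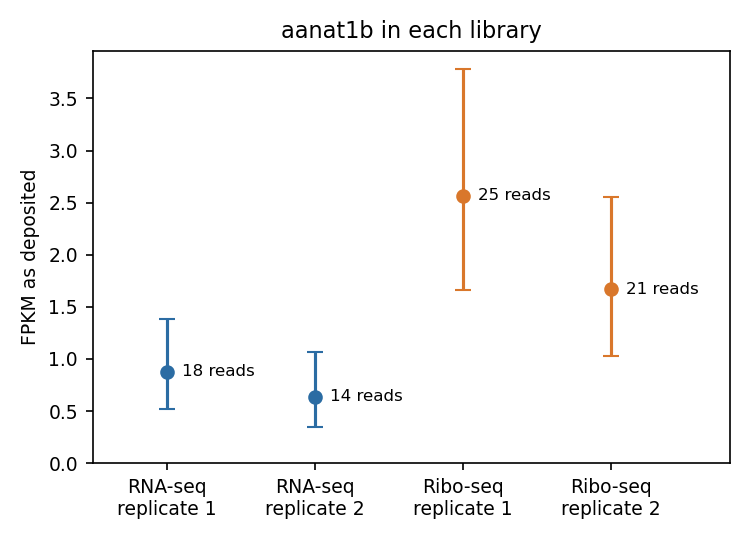
FPKM of aanat1b as deposited (y axis) in each of the 4 libraries (x axis). Points are the deposited values, bars are exact Poisson 95% intervals from the estimated number of reads written beside each point; the Ribo-seq points, 2.56 and 1.67, lie above the RNA-seq points, 0.877 and 0.639.

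After each library was divided by its median ratio to the geometric mean of each model, aanat1b had 0.627 and 0.484 scaled FPKM in RNA-seq and 3.94 and 1.80 in Ribo-seq, in the order of the replicates. Ribo-seq replicate 1 was thus 2.19 times replicate 2 for this gene after scaling, and 1.54 times as deposited. Most named models lay the other way. Only 14.2% of the 7242 models with a RefSeq symbol had a higher deposited FPKM in Ribo-seq replicate 1 than in replicate 2, and 34.5% after scaling. A scaled ratio above that of aanat1b was found in 2.35% of the 5706 named models in the limma fit described next. That set was not limited to models with as few reads as aanat1b. Its own Ribo-seq replicates had overlapping Poisson intervals as deposited, so the share does not show an unusual gap for its read number.

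The log2 difference of aanat1b, Ribo-seq minus RNA-seq on the scale of log2 of scaled FPKM plus 1, was 1.26 ± 0.34 (SE, limma). This scale understates the difference of low models. The fit took in 50625 models with a mean FPKM of at least 1. aanat1b met that limit, with a mean of 1.44 FPKM, through Ribo-seq alone. Its place among the tested models is therefore a description of values used in its choice and adds no support. Its difference was higher than that of 85.6% of all tested models, 72.1% of the tested models with a symbol and 73.1% of the 10926 matched to a protein-coding RefSeq gene. The medians of these sets were -0.20, 0.76 and 0.69, so aanat1b lay 0.50 above the median of the models with a symbol. Without Ribo-seq replicate 1 the difference was 1.04, which is 0.00 above the median of named models, and without Ribo-seq replicate 2 it was 1.83, which is 0.97 above it. With FPKM as deposited the median of all tested models moved from -0.20 to -0.79 and that of named models from 0.76 to 0.13. The difference of aanat1b was then 0.81, which is 0.69 above that of named models.

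The model lies on chromosome 8 from 20567563 to 20571247, a span of 3685 bases with a model length of 1143, so it is spliced. The RefSeq gene aanat1b of assembly ASM223467v1 runs from 20567609 to 20569507 and lies wholly inside it. The gene covers 51.5% of the span of the model, which starts 46 bases before it and goes on for 1740 bases beyond its end. Exon positions are not given, and which bases of the model are coding was not analysed here.

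The far end of the model is shared with another transcript. MEDAKA039207, a model of 720 nt from 20570919 to 20574120, overlaps the last 329 bases of the aanat1b span, 8.93% of it and outside the RefSeq gene. This neighbour had 6.35 and 5.63 FPKM in RNA-seq and 0.374 and 0.0593 in Ribo-seq, worth about 72 and 68 RNA reads and 2.0 and 0.4 footprints. It thus had the opposite order of the assays from aanat1b. No strand is given, so RNA reads of the shared bases cannot be assigned to either model from the table, and their part in the RNA level of aanat1b was not tested.

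Of the 18 other models within 50 kb, 13 had a higher mean RNA-seq FPKM than aanat1b and 5 a higher mean Ribo-seq FPKM. MEDAKA039199, which ends 2382 bases before aanat1b, had a mean RNA-seq level of 7.81 ± 0.385 FPKM (SD, n = 2) and a Ribo-seq level 1.21 times as high. MEDAKA039208, a model of 297 nt whose end is 2358 bases before aanat1b, had 29.8 and 41.7 FPKM in RNA-seq and was listed at 0 in both Ribo-seq libraries. It starts at 20564908, before the end of MEDAKA039199 at 20565180. Most of its span therefore overlaps that model, and reads shared by them cannot be assigned from the table. Among these 18 models, the ratio of mean Ribo-seq to mean RNA-seq was above that of aanat1b in 1, MEDAKA039217, which was listed at 0 in RNA-seq replicate 2 and in Ribo-seq replicate 1.

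**Figure D2:**
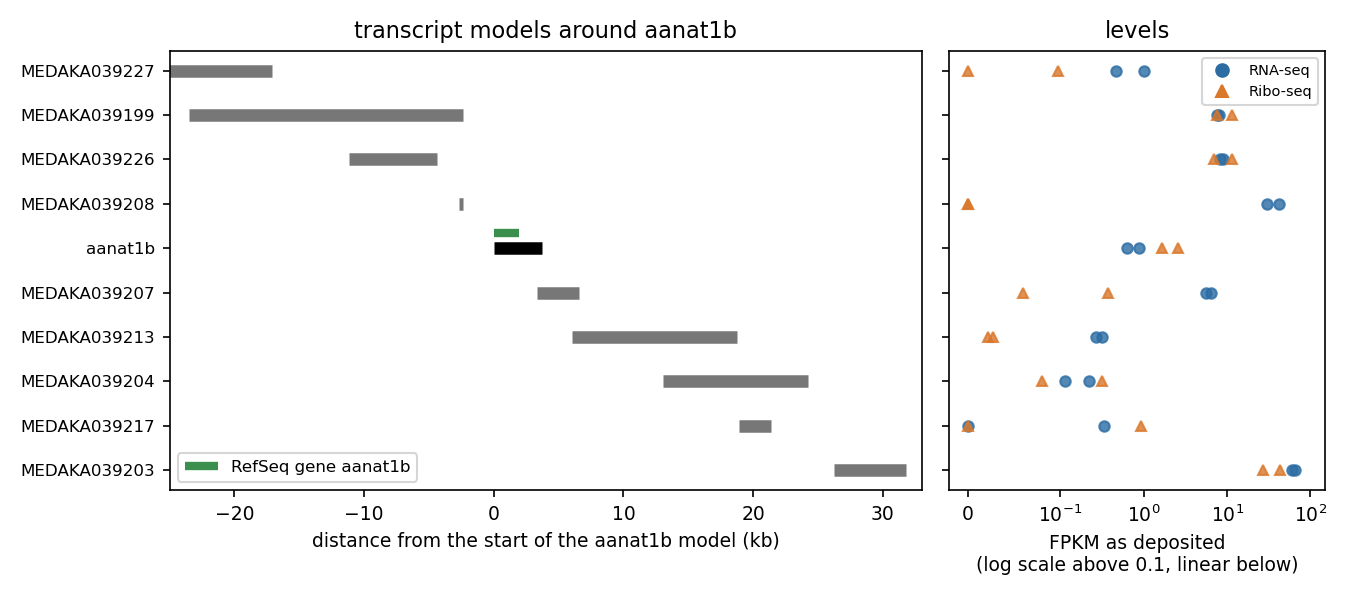
Transcript models around aanat1b by distance from the start of its model in kb (left; black for aanat1b, green for the RefSeq gene, grey for other models) and their FPKM in each library (right; circles RNA-seq, triangles Ribo-seq, log scale above 0.1). The overlapping model MEDAKA039207 has 6.35 and 5.63 FPKM in RNA-seq and 0.374 and 0.0593 in Ribo-seq, the reverse order of aanat1b.

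To place the footprint level, aanat1b was set beside the 970 other models of similar mean RNA-seq FPKM (0.606 to 0.946) and of a length within 20% (915 to 1371 nt). Their median Ribo-seq FPKM was 0.120, with quartiles of 0.0338 and 0.470, and 76 were listed at 0 in both Ribo-seq libraries. The 2.12 FPKM of aanat1b exceeded 955 of them, or 98.5%. By library, it exceeded 99.1% in Ribo-seq replicate 1 and 94.0% in replicate 2. Without the limit on length, 98.2% of 6703 models of similar RNA level lay below it, around a median of 0.0692 FPKM.

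Of the 970 models, 778 matched no RefSeq gene under the rule that model and gene each cover at least 50% of the other, which pieces or extensions of annotated genes also fail. These 778 had a median Ribo-seq FPKM of 0.0931. The 172 matched to a protein-coding RefSeq gene had a median of 0.507 FPKM, and 10 of them exceeded aanat1b. The 52 with a RefSeq symbol had a median of 0.624 FPKM, with quartiles of 0.199 and 1.28, and 3 exceeded aanat1b. Both Ribo-seq libraries lay above both RNA-seq libraries, as in aanat1b, in 66 of the 970 matched models, 30 of the 172 and 9 of the 52. These counts are to be read against the 10.5% and 31.4% given above for all models and all models with a symbol.

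**Figure D3:**
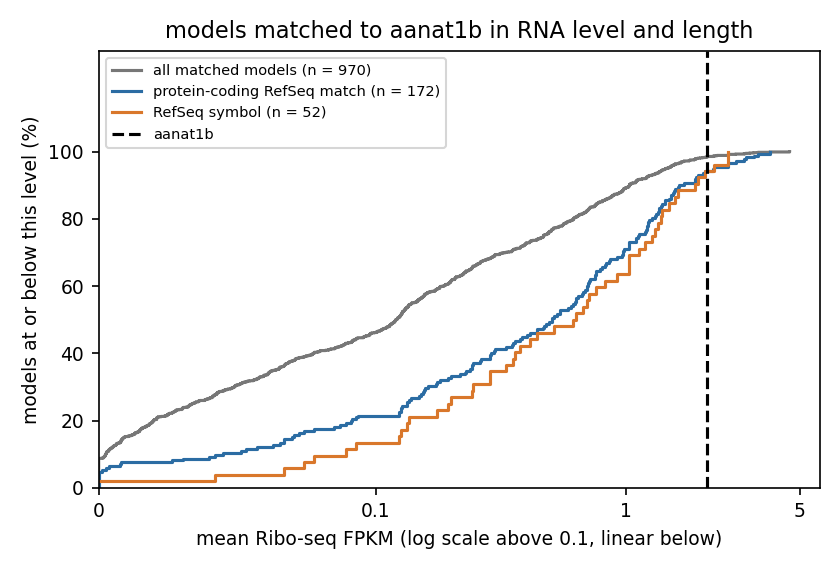
Cumulative share of matched models (y axis, percent) by mean Ribo-seq FPKM (x axis, log scale above 0.1), for all 970 models of similar RNA-seq FPKM and length, the 172 of them matched to a protein-coding RefSeq gene and the 52 with a symbol. The dashed line is aanat1b at 2.12 FPKM, above 98.5% of all matched models and above 94.2% of those with a symbol.

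The 3 matched genes with a symbol and a higher footprint level were spc25 and bub1b, which act at the kinetochore in mitosis, and slc39a12, a zinc transporter. spc25 had 0.752 and 1.01 FPKM in RNA-seq and 2.37 and 2.79 in Ribo-seq. bub1b had 0.935 and 0.738 FPKM in RNA-seq and 3.03 and 2.11 in Ribo-seq. slc39a12 had 0.739 and 0.914 FPKM in RNA-seq and 1.26 and 3.28 in Ribo-seq. Next below aanat1b stood grp, the gastrin-releasing peptide precursor, with a mean of 2.09 FPKM in Ribo-seq, and ube2c, a ubiquitin-conjugating enzyme of mitosis, with 1.94. The Ribo-seq values of grp lay far apart, at 0.794 FPKM in replicate 1 and 3.38 in replicate 2, about 6 and 33 reads, and the cause was not tested. At the other end, cda, a cytidine deaminase, had 0.0667 FPKM in Ribo-seq and tirap, an adaptor of Toll-like receptors, 0.0418. omg, a myelin glycoprotein gene, lay under the value of 1 read in both Ribo-seq libraries. The mean RNA-seq FPKM of cda, tirap and omg were 0.907, 0.803 and 0.906. The models of spc25, bub1b, slc39a12, ube2c and cda each overlap 1 other model and that of omg 2. Reads shared there cannot be assigned from the table. Those of grp and tirap overlap none. Of all models, 71.6% overlap another, and the same limit holds for other genes named below, such as asmt, whose model overlaps 3 others.

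By Euclidean distance over the 4 libraries in log2 of scaled FPKM plus 1, the 8 models with a symbol most like aanat1b were dnajb13, bub1b, rax, tex47, mpv17, cytl1, gata-1 and top2a, at distances of 0.25 to 0.43. dnajb13, a cochaperone gene, had 0.787 and 0.646 FPKM in RNA-seq and 2.77 and 1.299 in Ribo-seq. rax, a homeobox factor of the eye field and hypothalamus, had 0.794 and 0.257 FPKM in RNA-seq and 2.96 and 1.69 in Ribo-seq. Like aanat1b, both were higher in replicate 1 than in replicate 2 of each assay, as were bub1b, mpv17, cytl1 and gata-1. The models were picked by closeness over these same values, so a shared order of replicates is largely built into the choice. With 4 libraries of a single condition, this likeness is one of level and assay only.

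The other copies of the gene were near the limit of detection. The copy that RefSeq names aanat, with the synonym aanat1a (chromosome 1, 1247 nt), had 0.245 and 0.123 FPKM in RNA-seq, worth 5.6 and 3.0 reads, and was listed at 0 in both Ribo-seq libraries. At its length, the limit that 0 reads allow in a single library, taken as 3 reads, is 0.277 FPKM in Ribo-seq replicate 1 and 0.215 in replicate 2, against 0.245 in RNA-seq replicate 1. aanat2 (chromosome 8, 822 nt) had 0.209 and 0.483 FPKM in RNA-seq and 0 and 0.241 in Ribo-seq, the last worth 2.0 reads. aanat1b had the highest level of the 3 copies in each library. The lowest RNA-seq value of aanat1b, 0.639 FPKM, and the highest of aanat2, 0.483, were about 14 and 7.0 reads, so these neighbours in the order of RNA level are not well separated.

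Calls of single genes in the lists below depended on the libraries and the scaling. With 1 RNA-seq library left out, the residual spread came from the Ribo-seq pair alone. Calls lost in those fits therefore do not show that the RNA-seq levels carried them. With 1 Ribo-seq library left out, the residual spread came from the RNA-seq pair alone. Calls gained there take no account of the spread between Ribo-seq libraries. The difference of pah was 1.70 in the main fit, 1.63 without RNA-seq replicate 1 and 1.69 without replicate 2. That of th was 0.91, 0.72 and 1.06 in the same order. Among the genes named below as called, ywhag, ywhaq, kat2a and prkar1b passed with FPKM as deposited, and the others did not.

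Genes of the other steps of indoleamine and melatonin synthesis were more abundant than aanat1b in RNA-seq. Of 4 tested members other than aanat1b, 3 were called higher in Ribo-seq, 0 lower and 1 neither (limma, Benjamini-Hochberg adjusted p below 0.05), where 23.9% of all tested models and 52.4% of those with a symbol were called higher, and 33.7% and 6.01% lower. tph1, a tryptophan hydroxylase that starts serotonin synthesis, had 3.53 and 4.26 FPKM in RNA-seq and 4.92 and 7.76 in Ribo-seq. The Ribo-seq level was higher by 1.22 ± 0.19 on the log2 scale (SE; limma, adjusted p = 0.011). ddc, the decarboxylase shared by serotonin and dopamine synthesis, had 4.42 and 4.62 FPKM in RNA-seq and 5.80 and 10.5 in Ribo-seq, a difference of 1.35 ± 0.19 (limma, adjusted p = 0.0085). Differences between these genes and aanat1b were not tested, and the order of their values changed with the scaling, the pseudocount and the libraries used. With FPKM as deposited, for example, aanat1b had 0.81, ddc 0.68 and tph1 0.56, whereas without Ribo-seq replicate 1 aanat1b had 1.04, ddc 1.72 and tph1 1.49.

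The step after the enzyme did not pass the test. asmt, the methyltransferase that completes melatonin, had 4.43 and 5.18 FPKM in RNA-seq and 4.52 and 4.49 in Ribo-seq. Its difference was 0.59 ± 0.24 (SE, limma, adjusted p = 0.11). It turned to -0.073 with FPKM as deposited and was 0.98 without Ribo-seq replicate 2. asmtl, a related gene, was called, with a difference of 0.94 (limma, adjusted p = 0.031), which became 0.65 (adjusted p = 0.059) with upper quartile scaling and 0.35 (adjusted p = 0.46) with FPKM as deposited. RNA of asmt was thus present at 4.80 ± 0.531 FPKM (SD, n = 2), against 0.758 ± 0.168 for aanat1b, both per length. No model was matched to tph2, and none to the melatonin receptor mtnr1a; they were not analysed here.

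Genes of the other substrate, dopamine, and of amine handling were also measured. Of 5 tested genes of catecholamine synthesis and its cofactor, 3 were called higher and 0 lower. Among all tested models with a symbol, 52.4% were called higher and 6.01% lower. th, the tyrosine hydroxylase of catecholamine neurons, had 4.297 and 5.52 FPKM in RNA-seq and 4.42 and 7.98 in Ribo-seq, a difference of 0.91 (limma, adjusted p = 0.034). The call of th was lost with upper quartile scaling (0.58, limma, adjusted p = 0.077) and with no filter on low values (adjusted p = 0.0501). pah, which hydroxylates phenylalanine, and pcbd1, which recycles the cofactor, had differences of 1.70 and 1.45 (limma, adjusted p = 0.0055 and 0.0043). The paralog th2 and spr, the sepiapterin reductase, had -0.12 and 0.28 and did not pass (limma, adjusted p = 0.91 and 0.63). The model of th2, at 534 nt, lies inside the span of that of pah on chromosome 23, and reads shared by them cannot be assigned from the table. th2 was listed at 0 in Ribo-seq replicate 1 and had 3.15 FPKM in replicate 2, so that its direction rests on single libraries (1.15 without Ribo-seq replicate 1 and -1.19 without replicate 2).

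Of 3 tested genes of amine transport and breakdown, comtd1 and aldh2 were called higher, where 52.4% of all tested models with a symbol were. Their differences were 1.82 and 1.28 (limma, adjusted p = 0.0046 and 0.032). The call of aldh2 was lost with upper quartile scaling (0.91, limma, adjusted p = 0.053), with no filter on low values (adjusted p = 0.062) and with FPKM as deposited (0.53, adjusted p = 0.42). slc6a2, which takes up noradrenaline, had 0.38 (limma, adjusted p = 0.14). The plasma membrane transporters slc6a3 and slc6a4, known for dopamine and serotonin, had mean RNA-seq FPKM of 0.423 and 0.661 and were below the limit for testing. Of 13 listed genes of dopamine and serotonin receptors in RefSeq, 4 had a model, all of serotonin receptors. Of these, htr7 and htr2b were tested and neither was called, at 0.47 and -0.41 (limma, adjusted p = 0.093 and 0.085). htr2b passed as lower in Ribo-seq with FPKM as deposited (-0.79, limma, adjusted p = 0.025) and with upper quartile scaling (-0.60, adjusted p = 0.035). Its difference was -0.47 without RNA-seq replicate 1 and -0.32 without replicate 2.

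Genes of proteins that bind and phosphorylate AANAT in mammals were measured as well. When protein kinase A phosphorylates the enzyme, 14-3-3 proteins bind it and protect it from breakdown. Of 5 tested genes of these families, 3 were called higher and 1 lower, beside 52.4% and 6.01% of all tested models with a symbol. The 14-3-3 genes ywhag and ywhaq had 214 ± 3.70 and 179 ± 19.5 FPKM in RNA-seq (SD, n = 2) and differences of 2.55 and 2.45 (limma, adjusted p = 0.0039 for each). The kinase subunit genes ranged more widely. The regulatory subunit gene prkar1a had 1.37 and was called higher (limma, adjusted p = 0.0049). prkacb, a catalytic subunit, had 0.36 (limma, adjusted p = 0.22). prkar1b, a regulatory subunit with a model of only 540 nt, had 3.65 FPKM in RNA-seq and was listed at 0 in both Ribo-seq libraries. Its fitted difference was -1.88 (limma, adjusted p = 0.0039). The model of prkar1b overlaps 1 other model, and reads shared by them cannot be assigned from the table.

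The enzyme belongs to the GNAT superfamily of acetyltransferases. Of 13 tested members of a list of other GNAT genes, 8 were called higher, 0 lower and 5 neither. Of all tested models with a symbol, 52.4% were called higher and 6.01% lower. The median difference of the list was 0.84 against 0.76 for all named models. The highest of the list were naa20 and naa40, genes of enzymes that acetylate protein N-termini, at 1.52 and 1.48 (limma, adjusted p = 0.0039 and 0.0062). The lowest were kat14 and nat9, at -0.43 and 0.01 (limma, adjusted p = 0.10 and 0.97), and kat14 passed as lower with FPKM as deposited (-1.07, adjusted p = 0.027) and with upper quartile scaling (-0.75, adjusted p = 0.027). kat2a, a histone acetyltransferase and the tested member with the lowest mean RNA-seq FPKM, had 0.709 and 0.995 FPKM in RNA-seq and 2.09 and 3.22 in Ribo-seq. It was called higher (1.42, limma, adjusted p = 0.0068) but met the limit on mean FPKM through Ribo-seq alone; with a limit of 1 on mean RNA-seq FPKM it was not in the fit, and 18 genes of all the lists were called higher in place of 19.

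**Figure D4:**
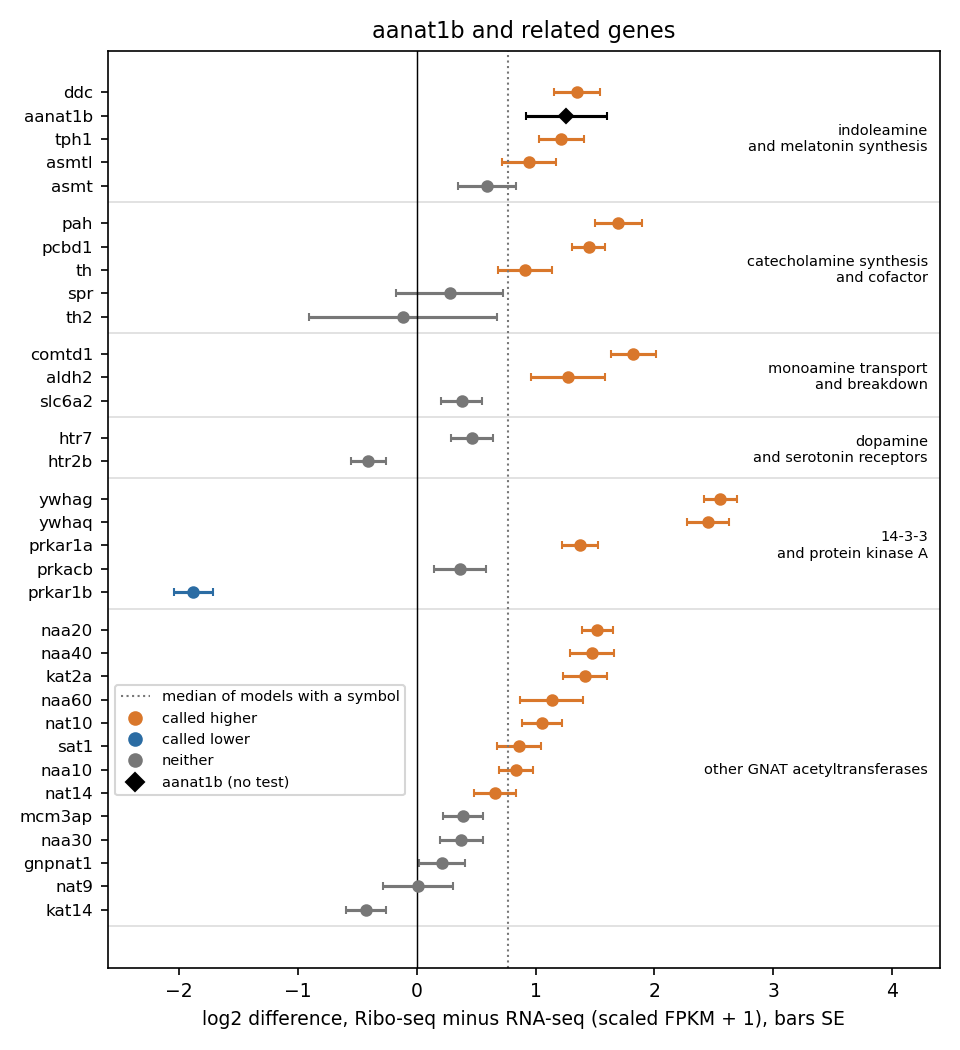
Log2 difference, Ribo-seq minus RNA-seq in log2 of scaled FPKM plus 1 (x axis; bars SE), of aanat1b (diamond, no test) and of the tested genes of 6 related lists (y axis), with calls by limma. aanat1b is at 1.26, tph1 at 1.22 and ddc at 1.35, an order that changes with the scaling, the pseudocount and the libraries used; the dotted line marks the median of models with a symbol, 0.76.

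Over all these lists, 63 genes other than aanat1b were found in RefSeq, 41 had a model and 32 were tested. Of the 32 tested genes, 19 were called higher and 1 was called lower. Their median difference was 0.89, and the calls stand beside the 52.4% and 6.01% of all named models. Without the scaling, 3 of the genes rose and 3 fell, and over all tested models the calls went from 12116 higher and 17048 lower to 2425 and 21141. With a library left out, the residual spread came from the pair of the other assay alone, so the calls of those fits say little.

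Melatonin enzymes are known markers of the pineal organ and the retina, so markers of their photoreceptors were read in the same libraries. Only 11 markers of a longer list were found in RefSeq by symbol, and others, such as exorh and parapinopsin, were not read. All 11 had a model, and 7 had less than 1 FPKM in every library. Their summed FPKM was 10.3 and 9.61 in RNA-seq and 9.62 and 11.3 in Ribo-seq, and unc119b alone made up 5.17 to 6.53 FPKM of each sum. Of the defining genes, the rod opsin rho had 0 and 0.0517 FPKM in RNA-seq and 0.583 and 0.361 in Ribo-seq, worth 0, 1.0, 5.0 and 4.0 reads. rbp3, the retinoid-binding protein between photoreceptors and pigment epithelium, had 0.0784 and 0.402 FPKM in RNA-seq and 0.413 and 1.37 in Ribo-seq. Of the 11 markers, 4 (rho, pde6g, rbp3 and unc119b) were higher in Ribo-seq than in RNA-seq within each replicate number. Another 5 (pde6c, prph2, guca1a, bsx and cnga3) were lower in Ribo-seq within each, and gnb3 and guca1b were mixed. Some of these orders rest on very few reads. pde6g had about 6.0 and 0.5 reads in RNA-seq and 3.0 and 2.0 in Ribo-seq, and prph2 had 2.9 and 0.05 in Ribo-seq. The share of all models with either order was not computed, so these counts have no background. Ribo-seq replicate 1 was the higher of the pair for rho and for aanat1b, and replicate 2 for rbp3. The part of pineal or retinal RNA in the level of aanat1b was not tested.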

How the data were processed

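The authors deposited FPKM per transcript model and library with model lengths, as the file headers show. TopHat2 2.1.0 and Cufflinks 2.2.1 are named, without roles, in the submitters' processing notes. Genome build, annotation and strand use were not given in the sources used here. Names come from RefSeq (ASM223467v1), where the overlap was at least 50% of model and of gene; 17796 models matched and 7242 received a symbol. The build was inferred: 2137 model ends lay within 10 bp of a protein-coding gene end, against 62 after moving models by 20 kb. Deposited starts were raised by 1, since 399 models then equal a gene start, against 133 as written.

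Libraries were scaled by median ratio, with factors of 1.40 and 1.32 for RNA-seq, 0.651 for Ribo-seq replicate 1 and 0.925 for replicate 2. limma 3.58.1 in R 4.3.3 was fitted to log2 of scaled FPKM plus 1 with assay as the term, and tested on simulated data. Other steps used Python 3.11.15 with pandas 2.3.3 and scipy 1.17.1. The value of 1 read came from models of 500 to 3000 nt. Named are aanat1b, models within 50 kb, list members (all of the melatonin list, otherwise the 2 highest and 2 lowest), the 8 nearest in pattern and the matched models at the ends and beside aanat1b. Outside this rule, th, oxt, prl, pomc, scg5, chga, kat2a, prkar1a, slc6a3, slc6a4, rho and rbp3 were chosen after their values were seen. The pituitary and neuropeptide marker npy, which the rule covers, had 0.74 and was not called (limma, adjusted p = 0.051). Members of the neuron, glia, oligodendrocyte and endothelium marker lists are not named. Gene, lists and rules were chosen with earlier results of these data known. Alternatives were other scalings, pseudocounts, filters, matching windows, a replicate block and leaving out each library.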

Additional observations from a re-analysis of the deposited data

How the results depend on the processing

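The log2 difference of aanat1b was 0.81 with unscaled FPKM, 1.06 with upper quartile scaling, 2.09 with a pseudocount of 0.1 and 0.49 with one of 5. It was 1.04 to 1.83 when a library was left out. The gene was chosen with this order of the assays in view, so a kept direction adds no support. A replicate block and the absence of a filter cannot move this estimate, which was 1.26 with each. A limit of 5 on mean FPKM, or of 1 on mean RNA-seq FPKM (chosen after seeing the data), removed the gene. In the main fit aanat1b lay above 72.1% of the tested named models. That share was 53.5% with a pseudocount of 5, 91.7% with one of 0.1, 78.0% with no filter and 50.2% without Ribo-seq replicate 1. These shares are descriptions only, as the gene passed the main filter through Ribo-seq alone. Names matched at 80% leave the model of aanat1b without this name, as 51.5% of its span lies in the RefSeq gene. Its share of matched models below it was 94.2% among those with a symbol, 94.2% among protein-coding ones (chosen after seeing the data), and 94.0% to 99.1% with a library left out; for similar RNA level alone, leaving out a library gave 95.3% to 98.8%. Models called higher numbered 2425 with unscaled FPKM and 1529 to 16410 with a library left out. Models called lower numbered 28801 with no filter, 4477 at a limit of 5, and 9458 to 17897 with a library left out. Pathway genes called higher numbered 3 with unscaled FPKM, 12 with names matched at 80%, and 1 to 21 with a library left out. Pathway genes called lower numbered 3 with unscaled FPKM, 3 with upper quartile scaling and 2 with no filter. They numbered 0 at a limit of 5 and 0 with names matched at 80%. With unscaled FPKM the differences of asmt (-0.073), spr (-0.43), slc6a2 (-0.19), htr7 (-0.22), prkacb (-0.35) and nat9 (-0.54) turned negative. With upper quartile scaling spr (-0.059) and nat9 (-0.28) did. th2 was 0.047 with a pseudocount of 5 and -1.19 to 1.15 with a library left out. nat9 was -0.0016 with a pseudocount of 0.1 and -0.20 to 0.52 with a library left out, and spr was -0.14 without Ribo-seq replicate 1. The cause was not tested. Across the 50625 tested models, the deviations of same-numbered libraries from their assay means correlated with r = 0.068. With 2 libraries per assay this cannot show whether the numbers pair samples, and the main fit left them unpaired. With a replicate block, 11131 models were called higher and 16488 lower. Estimated depth, 14 to 25 reads a library, limits what can be said of aanat1b.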
